A study of Mus musculus with 2 samples.

Results

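The chemokine receptor gene Cxcr3 and the genes of its ligands, Cxcl9 and Cxcl10, were followed through Visium spatial transcriptomics of mouse lung. These 3 genes were picked by symbol from the 32285 features of the deposited count tables, and they were picked because both ligands had already been seen to differ between the sections, so their levels below are a description. One section came from the lung of a control mouse with no treatment. The other, the metastatic section, came from a female Balb/c mouse of 6 to 8 weeks that received 1000000 cells of 4T1, a mouse mammary tumor line, orthotopically in the mammary fat pad, with the lung taken between 21 and 23 days later. Both tissues were fresh-frozen, permeabilized for 18 min and placed on the same slide, and the strain, sex and age of the control mouse are not stated in the labels used here. Each condition is 1 section of 1 lung, so section and condition cannot be told apart, no test between conditions was possible, and all intervals are exact 95% intervals that cover counting error only.

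CXCR3 is a chemokine receptor carried by activated T cells of the Th1 and cytotoxic kind and by natural killer (NK) cells, and it guides them toward its ligands. CXCL9 and CXCL10 are made by macrophages, dendritic cells, endothelium, fibroblasts and epithelium in response to interferon-gamma from T and NK cells, and CXCL10 is also induced by type I interferon and by NF-kB signals. The ligand CXCL9 is the more dependent on interferon-gamma, and both are widely used as readouts of a T cell-attracting tumor environment. Cxcl11, the remaining interferon-induced ligand gene, was not analysed here.

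The metastatic section had 1110 spots under tissue with 14657881 counts in all (median 11334.5 per spot, range 162 to 77512), and the control section had 1888 spots with 20329126 counts (median 9643.5, range 237 to 83152). A spot is a small region that can hold several cells, and in such data fewer cells of a type and less RNA per cell cannot be told apart. Both sections had 10 spots detached from the main piece, and 858 spot barcodes occurred in both, since a barcode marks a position on the array. The control section also held heart muscle transcripts (26.7 counts per 10000 of Myh6, Myl7, Sln and Myl4 against 0.0669 in the metastatic section), and neutrophil transcripts were 9.45 times higher in the metastatic section. Levels are raw counts over all counts of the same spots, times 10000 (CP10k).

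Lesion spots were found by clustering the metastatic section without the 3 genes, other chemokine genes, interferon-induced genes and immune and endothelial markers. The cluster with the highest 4T1 marker score had 175 spots, in a larger lesion of 132 spots, a smaller lesion of 40 spots and 3 single spots. The labels describe a lung with metastases, and the cluster carried part of a 4T1 profile. The 4T1 genes chose the cluster, so their high levels in it are no separate evidence. As a sum, the list was at 13.5 CP10k in the cluster, 8.15 outside it and 10.6 in the control section. Of that list, the proliferation gene Mki67 was at 1.06 CP10k in the lesions against 0.0798 far from them. Hmga2, a chromatin protein of embryonic and cancer cells, was at 0.156 in the lesions and at 0 counts in the control section. Other markers on the 4T1 list were at or near 0, with Krt14 at 0 counts and Hmga1 at 1 count in the lesions and Cldn4 at 0 counts in the core, so these spots are called lesions and not cancer cells. A split made after seeing the data divided them into a core (104 spots) and a rim (71 spots). The part with the lower level of the alveolar type II (AT2) cell list was named the core. That list was at 24.4 CP10k in the core and at 166.9 in the rim, close to the 205.1 of the distant lung. The 4T1 list was at 11.9 in the core and 16.4 in the rim, so the name core does not mark the higher 4T1 level. The remaining 935 spots were named near (107 spots within 200 µm of a lesion spot), between (211 spots) and far (617 spots beyond 500 µm).

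The ligand genes lie beside each other and are read from the same strand. In the mouse genome build GRCm38, Cxcl9 (ENSMUSG00000029417) spans chr5:92321347-92328079 and Cxcl10 (ENSMUSG00000034855) spans chr5:92346638-92348889, both on the minus strand and 18558 bases apart. Cxcr3 (ENSMUSG00000050232) is on chrX:101731535-101734269, also on the minus strand. The 250 bases before the transcription start of each ligand gene (RefSeq, GRCm38.p6, minus strand) are shown because the levels of these neighbors moved together in most places and apart in a few. Capitals mark matches to 4 motifs searched on both strands, namely the core of the interferon-stimulated response element (ISRE, GAAANNGAAA), the core of the gamma-activated site (GAS, TTCNNNGAA), the NF-kB consensus and the TATA box (TATAAA).
Cxcl9, chr5:92328080-92328329: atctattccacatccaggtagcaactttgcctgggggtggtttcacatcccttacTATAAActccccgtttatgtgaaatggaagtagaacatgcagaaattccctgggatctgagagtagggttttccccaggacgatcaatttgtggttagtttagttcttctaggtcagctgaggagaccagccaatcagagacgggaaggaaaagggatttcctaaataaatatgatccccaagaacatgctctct
Cxcl10, chr5:92348890-92349139: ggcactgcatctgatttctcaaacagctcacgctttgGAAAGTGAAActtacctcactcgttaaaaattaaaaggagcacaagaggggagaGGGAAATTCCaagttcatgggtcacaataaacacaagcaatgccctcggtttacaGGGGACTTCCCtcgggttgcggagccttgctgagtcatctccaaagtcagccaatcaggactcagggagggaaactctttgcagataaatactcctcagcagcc
The Cxcl10 window held 1 ISRE match, 213 to 204 bases before the start, and 3 NF-kB matches in separate or overlapping positions at 159 to 150, 104 to 95 and 103 to 94 bases before it. The Cxcl9 window held 1 TATA box match, 195 to 190 bases before the start, and no match to the other motifs. Neither window held the GAS core. Among 32841 promoter windows of this length, 2.98% held the ISRE core, 7.02% the GAS core, 7.25% the NF-kB consensus and 12.4% the TATA box. A match to a few letters is a description of the sequence, not a bound site, and a window without a match says nothing about the factor.

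Both ligands were highest in the lesion rim and stepped down outward, and in none of these regions was either back at the control level. Cxcl9 was at 2.21 CP10k (2.00 to 2.44) in the core, 6.99 (6.47 to 7.55) in the rim, 1.11 (0.953 to 1.297) near the lesions, 0.526 (0.441 to 0.623) in the spots between and 0.213 (0.182 to 0.248) in the far spots, against 0.00344 (0.00138 to 0.00709) in the control section. Cxcl10 was at 2.50 (2.27 to 2.75) in the core, 5.45 (4.98 to 5.94) in the rim, 0.849 (0.709 to 1.01) near, 0.203 (0.151 to 0.266) between, 0.114 (0.0917 to 0.140) far and 0.00787 (0.00450 to 0.0128) in the control section. For each ligand the interval of every one of these regions lay clear of those of its neighbors in this order. The control values rest on 7 counts of Cxcl9 in 5 spots and 16 counts of Cxcl10 in 13 spots, and only 1 control spot held both.

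The spots that held a ligand followed the same order. Cxcl9 was detected in 95.8% of rim spots, 77.9% of core spots, 65.4% near, 39.3% between and 20.9% far (129 of 617 spots), and in 0.265% of control spots. Cxcl10 was detected in 87.3% of rim spots, 59.6% of core spots, 51.4% near, 19.9% between and 10.2% far (63 of 617 spots), and in 0.689% of control spots. Depth differed between regions, with medians of 15943 counts in core spots, 12304 in rim spots and 10801 in far spots. With every spot thinned to 5000 counts, which left out 82 metastatic and 362 control spots, Cxcl9 was still in 85.5% of rim, 51.7% of core and 10.7% of far spots, and Cxcl10 in 68.1%, 48.3% and 5.28%. The thinned control shares were 0.131% for Cxcl9 and 0.393% for Cxcl10.

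**Figure D1:**
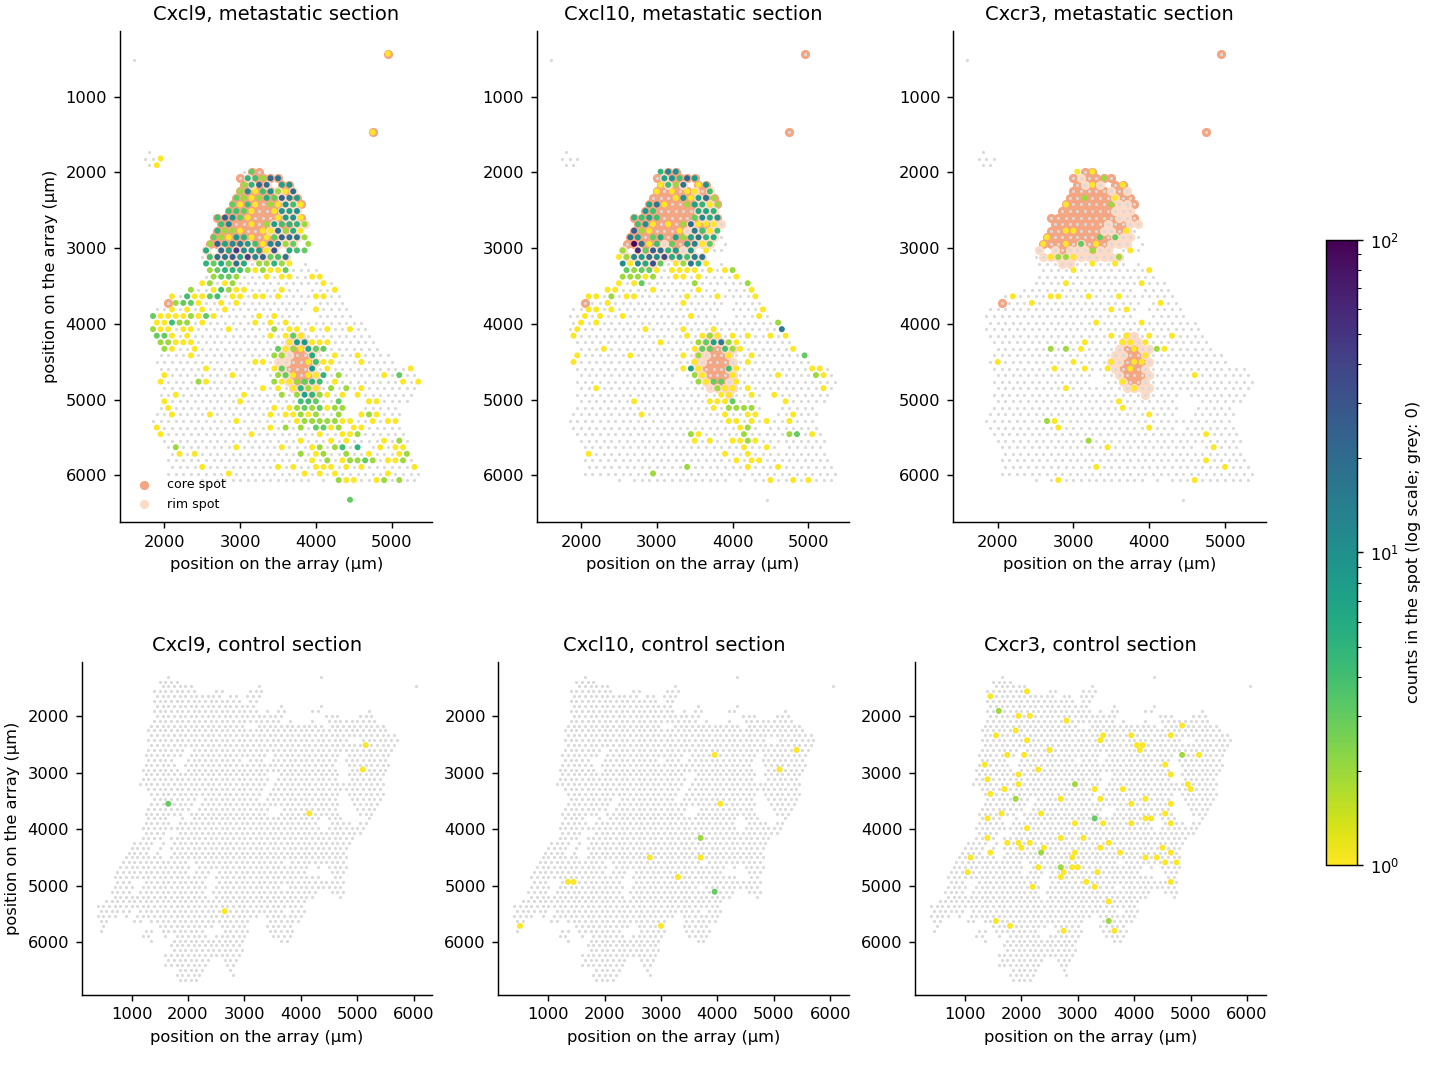
Counts per spot of Cxcl9, Cxcl10 and Cxcr3 in the metastatic section (upper row) and the control section (lower row), by position on the array in µm, on a log color scale with spots at 0 in grey and lesion core and rim spots backed in orange and pink. The ligands gathered on the 2 lesions and thinned outward, with 5 and 13 positive spots in the control section, whereas Cxcr3 was scattered over both sections at no more than 3 counts per spot.

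Read by distance, the ligands peaked just inside the lesion border. In rings of 100 µm, Cxcl9 was at 2.48 CP10k 600 µm inside the border, 5.91 at 200 µm inside, 5.35 at 100 µm inside, 1.41 at 100 µm outside and 0.809 at 200 µm outside. It then went on down to 0.598, 0.460, 0.407 and 0.211 at 300, 400, 500 and 600 µm. Cxcl10 was at 1.65 at 600 µm inside, 5.41 at 200 µm inside, 4.41 at 100 µm inside, 1.29 at 100 µm outside and 0.391 at 200 µm outside, and then at 0.290, 0.133, 0.118 and 0.100. The profiles had the same summit and differed in their outer slope. At 400 µm Cxcl9 kept 11.9% of its lesion level and Cxcl10 3.78%.

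The ring at 700 µm was the exception to the decline of Cxcl10. It held 33 counts (0.353 CP10k), of which 15 lay in a single spot, and it stood at 0.195 without that spot. The same spot carried no Cxcl9 count and 26 counts of the mesothelium markers Msln, Upk3b and Wt1, which is taken up further on.

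Genes largely confined to the lesions were set beside the ligands, to show how far lesion transcripts reached into the neighboring ring. At 100 µm outside, Csn3, a milk casein gene on in the lesions, was at 3.38% of its lesion level and Hmga2 at 0 counts, whereas Cxcl9 was at 36.5% and Cxcl10 at 36.7%. The proliferation genes Mki67 and Top2a, which dividing host cells also express, were at 28.3% and 38.5%. Csn3 rests on 104 lesion counts and 1 count at 100 µm, and Hmga2 on 42 lesion counts. The 0 counts of Hmga2 at 100 µm allow up to 0.0482 CP10k, against 0.156 in the lesions. Further out, Hmga2 was at 8.65% of its lesion level at 200 µm and 17.4% at 300 µm, on 1 and 3 counts. Csn3 was at 6.99% at 200 µm and at 0 counts at 300 µm. The part of such reach in the ligand levels was not tested.

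**Figure D2:**
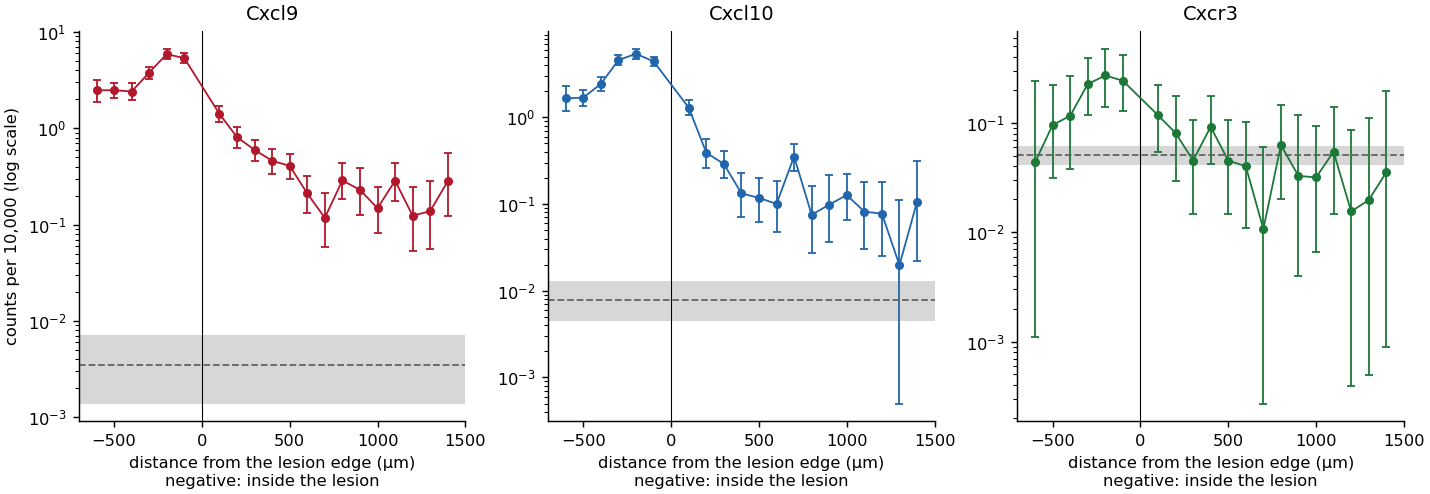
Level in CP10k on a log axis against distance from the lesion border in µm (negative values inside) for Cxcl9, Cxcl10 and Cxcr3 in the metastatic section. Points are rings of 100 µm with exact 95% Poisson intervals, and the dashed line and grey band give the control section, which lies under every ring for both ligands except for the lower bound of Cxcl10 at 1300 µm, while for Cxcr3 it crosses most rings.

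The rim and the core differed for both ligands. Cxcl9 was 3.16 times higher in the rim than in the core (2.78 to 3.59) and Cxcl10 2.18 times (1.91 to 2.48), in a comparison where 12.8% of all genes tested were at least 2-fold higher in the rim. The larger lesion had ratios of 3.71 (3.25 to 4.24) and 2.56 (2.24 to 2.93). In the smaller lesion, whose core of 15 spots held 11 counts of Cxcl9 and 9 of Cxcl10, the ratios were 1.42 (0.751 to 2.96) and 1.19 (0.580 to 2.73), and their intervals include 1. The rim also held more lung than the core, which follows in part from naming the core by its lower AT2 level. T cell markers were at 6.11 CP10k in the rim and 1.84 in the core, endothelial markers at 13.7 and 2.56, and macrophage markers at 19.4 and 19.0, and the part of these cells in the ligand difference was not tested.

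The lung beside the lesions differed from the far lung as well. Cxcl9 was 5.24 times higher near than far (4.20 to 6.53) and Cxcl10 7.45 times (5.64 to 9.87), where 5.6% of all genes tested were at least 2-fold higher. Around the larger lesion the near spots were at 2.02 CP10k of Cxcl9 and 1.97 of Cxcl10, and around the smaller lesion they were at 0.730 and 0.391. The far lung was assigned to the closer lesion, and its intervals overlapped, with 0.222 and 0.196 for Cxcl9 and 0.0986 and 0.118 for Cxcl10. Even so, the far spots exceeded the control section 61.8-fold for Cxcl9 (29.4 to 156) and 14.5-fold for Cxcl10 (8.45 to 26.4), in a comparison where 1.24% of the 14681 genes tested were at least 2-fold higher. By the size of this ratio they ranked 3 and 14.

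The far lung counts were spread thin. Of the 129 far spots with Cxcl9, 30 had at least 2 counts and the richest had 5, and the largest touching group of spots with at least 2 counts had 7 spots. Of the 63 far spots with Cxcl10, 12 had at least 2 counts, and these touched in groups of no more than 2 spots. In the section as a whole the opposite held. The 50 richest spots held 51.1% of all 1512 Cxcl9 counts and 65.0% of all 1218 Cxcl10 counts. The highest Cxcl10 count, 93 in a core spot that also held 23 counts of Cxcl9, made up 21.1% of the core total, and the core stood at 2.00 CP10k without it.

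The balance of the ligands shifted with place, although 1 spot weighed on the share in the core. It held 93 of the 441 Cxcl10 counts and 23 of the 390 Cxcl9 counts of the core. The share without that spot was not taken, so the difference between core and rim is uncertain. Cxcl9 made up 46.9% of the ligand counts in the core (43.5 to 50.4), 56.2% in the rim (53.3 to 59.1), 56.8% near (50.9 to 62.5), 72.2% between (65.2 to 78.5) and 65.1% far (59.0 to 70.9). Measured from the core, its share was 83.0% at 600 µm, was 31.8% at 900 µm, in the ring with the rich Cxcl10 spot, and was 75.3% from 1000 µm on. In the control section Cxcl9 made up 30.4% of 23 ligand counts (13.2 to 52.9).

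Spot by spot, the ligands overlapped. In the metastatic section 210 spots held both genes, 221 Cxcl9 alone, 74 Cxcl10 alone and 605 neither, so 73.9% of the Cxcl10 spots also held Cxcl9 and 48.7% of the Cxcl9 spots also held Cxcl10. The product of the shares gives 110.3 spots with both, and 1.90 times as many were seen. The excess was smaller within strata of place (core, rim and each ring of 100 µm outside), where the products gave 175.1 spots and the ratio was 1.20. Outside the lesions 90 spots held both against 67.5 expected within strata (ratio 1.33), and in the lesions 120 against 107.7 (ratio 1.11).

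By correlation the overlap weakened outward, while other measures had no steady order at full counts. The odds ratio was 22.8 in the lesions, 4.00 near, 5.47 between and 1.33 far, where 16 spots held both against 13.2 expected. Spots with both over the product of the shares came to 1.14 in the lesions, 1.22 near, 1.82 between and 1.21 far. This ratio cannot exceed 1 over the larger share, and Cxcl9 was in 85.1% of lesion spots and 20.9% of far spots. Its range is therefore narrow in the lesions, and it cannot rank the regions. The same limit applies to the ratios within strata given above. The correlation over spots of log-transformed CP10k had r = 0.68 in the 71 rim spots, 0.51 in the 104 core spots, 0.43 in the 107 near spots, 0.27 in the 211 spots between and 0.02 in the 617 far spots. These spots share a section and differ in depth, with medians of 16539 counts in lesion spots that held both and 9401 in those with neither. After thinning to 5000 counts r was 0.57 in the rim, 0.46 in the core, 0.35 near, 0.06 between and 0.03 far. The thinned odds ratio was 6.33 in the lesions, 4.59 near and 2.19 between. The far values rest mostly on spots with 1 count of either gene.

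In lesion spots the level of Cxcl10 climbed with the count of Cxcl9. It was 0.757 CP10k in the 26 spots without Cxcl9, 1.28 in the 34 spots with 1 count, 1.79 with 2 to 3, 2.98 with 4 to 7, 4.20 with 8 to 15 and 9.25 in the 22 spots with 16 to 44. Median depth went from 11573 to 20058 counts over the same classes. The interferon-gamma-induced genes went along, from 14.5 to 35.6 CP10k, while macrophage markers stayed between 17.2 and 20.3. Outside the lesions Cxcl10 was at 0.123, 0.295, 0.443 and 1.49 in spots with 0, 1, 2 to 3 and at least 4 counts of Cxcl9, and there macrophage markers went from 4.61 to 11.9 as well.

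**Figure D3:**
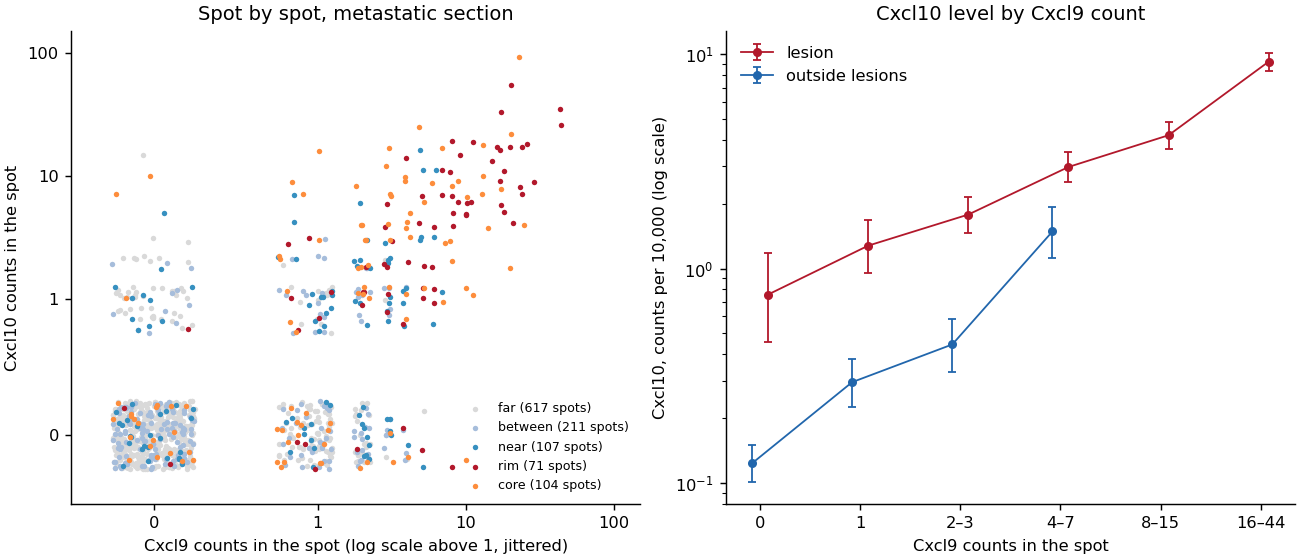
Left, counts of Cxcl10 against counts of Cxcl9 in each of the 1110 spots of the metastatic section (log axes above 1, points jittered), colored by region. Right, Cxcl10 level in CP10k (log axis, exact 95% Poisson intervals) by Cxcl9 count class in lesion spots and in spots outside the lesions, which climbs from 0.757 to 9.25 and from 0.123 to 1.49.

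The level of each ligand around the spots of the other was also read by distance. Outside the lesions Cxcl10 was at 0.462 CP10k (0.395 to 0.538) in spots that held Cxcl9, at 0.120 (0.0926 to 0.153) in spots whose nearest Cxcl9 spot was 100 µm away and at 0.119 (0.0774 to 0.174) at 200 µm. Read the other way, Cxcl9 was at 0.840 (0.724 to 0.969) in spots that held Cxcl10, at 0.417 (0.360 to 0.481) at 100 µm and at 0.195 (0.147 to 0.252) at 200 µm, and the distance to the lesions, which also changes along these steps, was not held fixed. Among the 50 spots highest in each ligand by CP10k, 27 were shared. For Cxcl9 these lay in the rim (33), the core (15) and near (2). For Cxcl10 they lay in the rim (26), the core (16), near (5), between (1) and far (2). The spots with most counts of both were a core spot with 23 counts of Cxcl9 and 93 of Cxcl10, and rim spots with 43 and 35, 20 and 55, and 44 and 26.

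Cxcr3 was sparse everywhere, and its regions stood in the same order as those of its ligands, with smaller steps between them. It had 105 counts in 87 metastatic spots and 103 counts in 94 control spots, with at most 3 counts in a spot. Its level was 0.142 CP10k (0.0918 to 0.209) in the core, 0.247 (0.157 to 0.371) in the rim, 0.0995 (0.0557 to 0.164) near, 0.0702 (0.0416 to 0.111) between and 0.0304 (0.0195 to 0.0452) far, against 0.0507 (0.0414 to 0.0614) in the control section. The lesions were 3.52 times above the control section (2.44 to 5.001), in a comparison where 18.1% of all genes tested were at least 2-fold higher. The far lung lay below it, at a ratio of 0.600 (0.368 to 0.943). That interval took in 1 without abundant genes in the spot totals (0.669, 0.410 to 1.05) and after thinning to 5000 counts (0.459, 0.174 to 1.03). Core and rim intervals overlapped for Cxcr3, as did those of neighboring regions further out.

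Over the whole section the receptor barely differed from the control. The section-to-control ratio was 1.41 (1.07 to 1.87), against 299.6 (145 to 746) for Cxcl9 and 105.6 (64.7 to 185) for Cxcl10, with 4.84% of all genes tested at least 2-fold higher. At 5000 counts per spot, Cxcr3 was in 2.43% of metastatic and 2.42% of control spots, and the ratio of its thinned levels was 0.941. Near the lesions Cxcr3 was 3.27 times higher than far from them (1.60 to 6.50), on 15 and 24 counts.

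Over the whole section, 47 of the 87 Cxcr3 spots held Cxcl9 (54.0%, against 37.5% of the other spots). Cxcl10 was in 39 of the 87 (44.8%, against 23.9%). Taken separately outside and inside the lesions, Cxcr3 spots held Cxcl9 about as often as other spots. Outside the lesions 16 of the 52 Cxcr3 spots held Cxcl9 (30.8%, against 30.1% of the other spots), and in the lesions 31 of 35 did (88.6% against 84.3%). Cxcl10 was in 13 of the 52 outside, where 16.6% of the other spots held it, and in 26 of the 35 in the lesions (74.3% against 70%). Within the strata of place, the spots with Cxcr3 and Cxcl9 were 0.768 times the product of the shares outside and 1.03 times in the lesions, and those with Cxcr3 and Cxcl10 were 1.02 and 1.03 times. By Cxcl9 count in the lesion spots, Cxcr3 was at 0.159 CP10k in spots with 0 counts of Cxcl9, 0.320 with 1, 0.0836 with 2 to 3, 0.0760 with 4 to 7, 0.176 with 8 to 15 and 0.307 with 16 to 44. The shares of spots with Cxcr3 were 15.4%, 26.5%, 14.3%, 12.5%, 19.2% and 36.4% in the same order, on 4 to 14 counts of Cxcr3 a class and with the last class the deepest. With so few counts a moderate association was not detectable at this depth. Ifng, the gene of interferon-gamma itself, was in only 14 spots of the section. Cxcl9 was in 12 of them (85.7%, against 38.2% of the other spots), and in the lesions, where 84.6% of the other spots held it, in 6 of 6. Cxcl10 was in 4 of those 6 lesion spots, against 71.0% of the others. Outside the lesions Cxcl9 was in 6 of the 8 Ifng spots (75%, against 29.8% of the other spots). There Cxcl10 was in 3 of the 8 (37.5% against 16.9%), and these spots are too few to read further.

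Of the marker lists, interferon-gamma-induced genes and macrophage markers ran with both ligands outside the lesions, endothelial markers with neither, and mesothelium markers with Cxcl10. The values are Pearson correlations over the 935 spots outside the lesions, which share a section, and they are descriptions without a p. For interferon-gamma-induced genes r was 0.32 with Cxcl9 and 0.42 with Cxcl10, for macrophages 0.33 and 0.29, for T cells 0.13 and 0.19, and for endothelium 0.05 and -0.01. Taken within rings, the macrophage values were 0.23 and 0.18 and the T cell values 0.04 and 0.09. The lowest values were those of airway markers, -0.31 and -0.32, which took 2278 of every 10000 counts outside the lesions, and the part of this share in the values of other genes was not tested.

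Spots with and without a ligand were also compared ring by ring, with intervals that cover the counts in the spots with the ligand alone. Macrophage markers were 1.49 times higher in the 282 spots with Cxcl9 than in the 653 spots without it (1.44 to 1.54) and 1.66 times higher in the 160 spots with Cxcl10 (1.59 to 1.73). T cell markers were 1.10 times (1.02 to 1.18) and 1.38 times higher (1.26 to 1.50), and endothelial markers 1.05 times (1.04 to 1.07) and 1.01 times (0.989 to 1.03). Spots with a ligand were slightly deeper, with medians of 11303.5 against 10741 for Cxcl9 and 12150 against 10676 for Cxcl10. In the far spots, sorted by macrophage marker counts, Cxcl9 went from 0.129 CP10k at 0 to 2 counts to 0.363 at 12 or more, and Cxcl10 from 0.0536 to 0.265. Sorted by T cell marker counts, Cxcl9 in the far spots was 0.223, 0.197, 0.185 and 0.264 at 0, 1, 2 to 3 and at least 4 counts.

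Inside the lesions the ranking was another. Interferon-gamma-induced genes were again close to the ligands, with r of 0.63 for Cxcl9 and 0.58 for Cxcl10 over 175 spots. T cell markers came to 0.46 and 0.42 and macrophage markers, which were high throughout the lesions, to 0.07 and 0.01. Endothelial markers (0.44 and 0.33) and AT1 cell markers (0.48 and 0.34) had values like those of T cells, and both lists were higher in the rim. Within the rim alone T cell markers had r of 0.10 and 0.19, endothelial markers 0.08 and 0.05, and interferon-gamma-induced genes 0.55 and 0.60. Within the core Cxcl9 was at 0.913 CP10k in the 21 spots without a T cell marker count and at 3.40 in the 36 spots with at least 4, and Cxcl10 at 0.365 and 4.55. T cell counts in a spot also grow with its depth.

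Mesothelium markers set Cxcl10 apart from Cxcl9. Mesothelial cells line the lung surface, and their markers were Msln (mesothelin), Upk3b (an uroplakin) and Wt1 (a transcription factor). Outside the lesions r with the list was 0.38 for Cxcl10 and 0.12 for Cxcl9, and 0.35 and 0.09 within rings. Compared ring by ring, the list was 5.30 times higher in spots with Cxcl10 than without it (4.73 to 5.92) and 0.927 times in spots with Cxcl9 (0.798 to 1.07). The single markers gave Cxcl10 0.37 (Msln), 0.35 (Upk3b) and 0.30 (Wt1). Without the 5 spots richest in Cxcl10 the list value was 0.36, and without the 5 spots richest in mesothelium counts it was 0.31.

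The levels, broken down after seeing these correlations, carried the same difference. In the 18 far spots with at least 3 mesothelium counts, Cxcl10 was at 1.76 CP10k (1.21 to 2.49, 32 counts), against 0.0672 (0.0495 to 0.0890) in the 546 far spots with none. Cxcl9 in the same spots was at 0.276 (0.0895 to 0.643, 5 counts) against 0.206 (0.174 to 0.242). Of the 32 Cxcl10 counts, 15 lay in the 1 spot at 700 µm described above. Near the lesions the 10 spots with at least 3 counts had 1.95 of Cxcl10 against 0.737, and 1.19 of Cxcl9 against 1.10. In the control section 10 of the 16 Cxcl10 counts lay in the 172 spots with at least 3 mesothelium counts (0.0449 CP10k, 0.0215 to 0.0826), against 6 counts in 1372 spots with none (0.00433, 0.00159 to 0.00943). No Cxcl9 count lay in those 172 control spots, which allows a level of up to 0.0135. Fibroblast markers, with r of 0.28 for Cxcl10 and 0.12 for Cxcl9, moved in the same direction, and their part in the mesothelium values was not tested.

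The receptor correlated weakly with the marker lists. Outside the lesions r for Cxcr3 was 0.10 with macrophage markers, 0.05 with T cell markers, -0.03 with endothelial markers and 0.06 with interferon-gamma-induced genes. Compared ring by ring, the mesothelium list was 2.29 times higher in the 52 spots with Cxcr3 than in the other 883 (1.81 to 2.87), with r of 0.04. Without the 5 spots richest in mesothelium counts r was -0.03. In the lesions the highest value was that of NK cell markers, 0.23, and T cell markers had -0.03. Of the 5 NK cell markers, Ncr1 had 0.26 on 30 counts. The others lay between -0.02 (Klrb1c) and 0.10 (Klrk1). With core and rim compared separately and pooled, T cell markers were 1.31 times higher in the 35 lesion spots with Cxcr3 than in the other 140 (1.15 to 1.50), and macrophage markers 0.989 times (0.927 to 1.05). In the control section spots with Cxcr3 had 1.24 times the T cell level (1.09 to 1.42), 1.46 times the NK level (1.18 to 1.78) and 1.39 times the macrophage level (1.27 to 1.52), at a median depth of 11470.5 against 9522 counts.

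**Figure D4:**
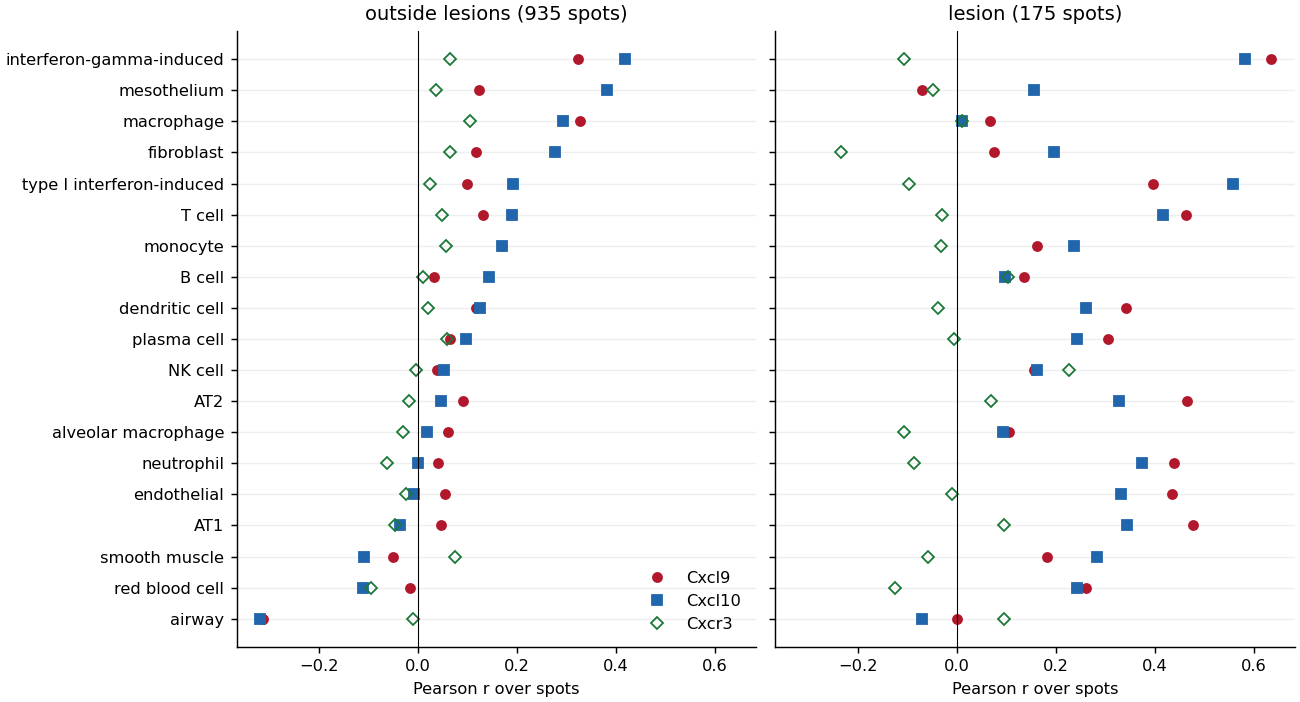
Pearson r over spots between log-transformed CP10k of Cxcl9, Cxcl10 or Cxcr3 and of each marker list, in the 935 spots outside the lesions (left) and the 175 lesion spots (right). Outside, interferon-gamma-induced genes reach 0.42 with Cxcl10, mesothelium separates Cxcl10 (0.38) from Cxcl9 (0.12), and Cxcr3 stays near 0 for every list, whereas in the lesions macrophage markers have 0.07 and 0.01 with the ligands and T cell markers 0.46 and 0.42.

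Among the 7283 genes with at least 200 counts outside the lesions, those with the pattern most like Cxcl9 were Lgals1 (r = 0.38), S100a4 (0.38), S100a6 (0.34), the ribosomal gene Rpl38 (0.34) and C1qa (0.33), a complement gene of macrophages. Next came Rpl10a, Igha, Rps15a, Rpl32 and H2-Aa, the last an MHC class II gene, at 0.32 to 0.31. For Cxcl10 the list was led by the complement genes Cfb (0.47) and C3 (0.42), then Timp1 (0.40), an inhibitor of metalloproteinases, Gbp2 (0.39), an interferon-induced GTPase, and C2 (0.38). Msln, Ifi27l2a, Saa3, Col3a1 and Ccl2 followed at 0.37 to 0.35. The lists of the ligands shared no gene. For Cxcr3 the leading genes were Bok (0.17), Dcn (0.14), Ssr4 (0.14), Ints1 (0.14) and Wdfy4 (0.13). Over all 7283 genes, 99 in 100 had r under 0.25 with Cxcl9, 0.23 with Cxcl10 and 0.10 with Cxcr3, so the Cxcr3 values are weak in absolute size.

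The genes that act on or after these 3 were taken from a list of 27, of which 26 were measured. In the lesions against the control section, 13 of the 23 with enough counts were at least 2-fold higher and 1 was lower, where 18.1% of all genes tested were higher and 24.3% lower, with a median log2 ratio of 1.28 against 0.07 over all genes. In the rim against the core 5 of 21 were higher and none lower (medians 0.80 and 0.16), where 12.8% and 2.97% of all genes were. Near against far 7 of 20 were higher and none lower (0.64 and 0.24), where 5.6% and 2.21% of all genes were. In the far spots against the control section 2 of 23 were higher and 2 lower (0.19 and -0.21), where 1.24% and 6.33% of all genes were. Of the interferon-gamma-induced genes, 15 of 15 were higher in the lesions, 5 of 15 in the rim against the core, 12 of 15 near against far and 3 of 15 in the far lung. These lists were chosen with earlier results known, and their counts are not independent evidence.

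Of the inducing arm, Ifng had 4 counts in the core, 4 in the rim, 5 near, 1 between, 3 far and 10 in the control section, too few for a profile. Its receptor chain Ifngr1 was at 1.32 CP10k in the core, 2.62 in the rim, 2.13 far and 2.34 in the control section. Irf1, an interferon-induced transcription factor, was at 1.31, 2.74, 1.23 and 0.903 in the same places. Socs1, the feedback inhibitor of the JAK kinases, was at 0.420, 0.741, 0.0963 and 0.0649. Irf1 and Socs1 thus had their highest level where the ligands had theirs, the rim. Their lesion-to-control ratios were smaller than those of the ligands, at 2.00 for Irf1 and 8.18 for Socs1 against 1122 for Cxcl9 and 447.2 for Cxcl10. Il12rb1, a receptor chain for interleukin-12, which drives Ifng in T and NK cells, was at 0.182 CP10k in the lesions and 0.0118 in the control section.

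The interferon-gamma-induced genes were highest in the rim as a summed list, with 5 of 15 at least 2-fold above the core. Gbp2, a guanylate-binding protein gene, was at 2.88 CP10k in the core, 4.20 in the rim, 1.75 near, 0.684 far and 0.462 in the control section. Iigp1, an immunity-related GTPase gene, was at 1.54, 2.83, 0.942, 0.279 and 0.213. Ciita, the master regulator of MHC class II, was 4.02 times higher in the rim than in the core (2.61 to 6.33), and Cd274, which encodes PD-L1, 3.65 times (1.85 to 7.54). Of the type I interferon-induced genes 6 of 9 were at least 2-fold higher in the lesions than in the control section, where 18.1% of all genes were, and 1 of 9 in the far lung, where 1.24% were. As summed lists, interferon-gamma-induced genes ran from 29.3 in the rim to 5.17 far and 3.99 in the control section, and type I interferon-induced genes from 3.49 to 1.45 and 1.43.

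Of 6 genes that accompany CXCR3 on Th1 and cytotoxic lymphocytes, 5 had enough counts in rim and core, and 3 of the 5 were at least 2-fold higher in the rim, where 12.8% of all genes were. Tbx21, the transcription factor that drives Cxcr3 in Th1 cells, was 8.52 times higher in the rim than in the core (2.81 to 34.6), on 18 and 4 counts. Ccl5, a chemokine of T and NK cells, was at 0.993 CP10k in the core, 3.86 in the rim, 1.05 near and 0.504 far, and its control level of 1.34 lay above that of the far lung. Cxcr6, a receptor of tissue T cells, was at 0.0737, 0.193, 0.0995 and 0.0279, and at 0.0167 in the control section. The T cell list itself was at 1.40 far and 1.70 in the control section, and the NK list at 0.276 and 0.624, so the far lung with more ligand transcript had no more T or NK cell transcript than the control lung.

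Of the proteases that trim the ligands, Dpp4, which shortens CXCL9 and CXCL10, was at 0.0851 CP10k in the core, 0.322 in the rim, 0.816 near, 0.812 far and 0.825 in the control section. It was the only gene of the list at least 2-fold lower in the lesions than in the control section. Mmp9, which cleaves CXCL9 and CXCL10, was at 0.448, 0.688, 0.445, 0.269 and 0.106, and was higher in each of these regions than in the control section. Neutrophils carry Mmp9, and their markers were at 2.14 CP10k in the core, 8.20 in the rim, 20.6 near, 25.03 far and 2.21 in the control section, an order unlike that of Mmp9, and their part in its level was not tested. Pf4, a platelet chemokine that can bind CXCR3, was at 1.95 in the core, 1.38 in the rim, 1.07 far and 1.00 in the control section.

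**Figure D5:**
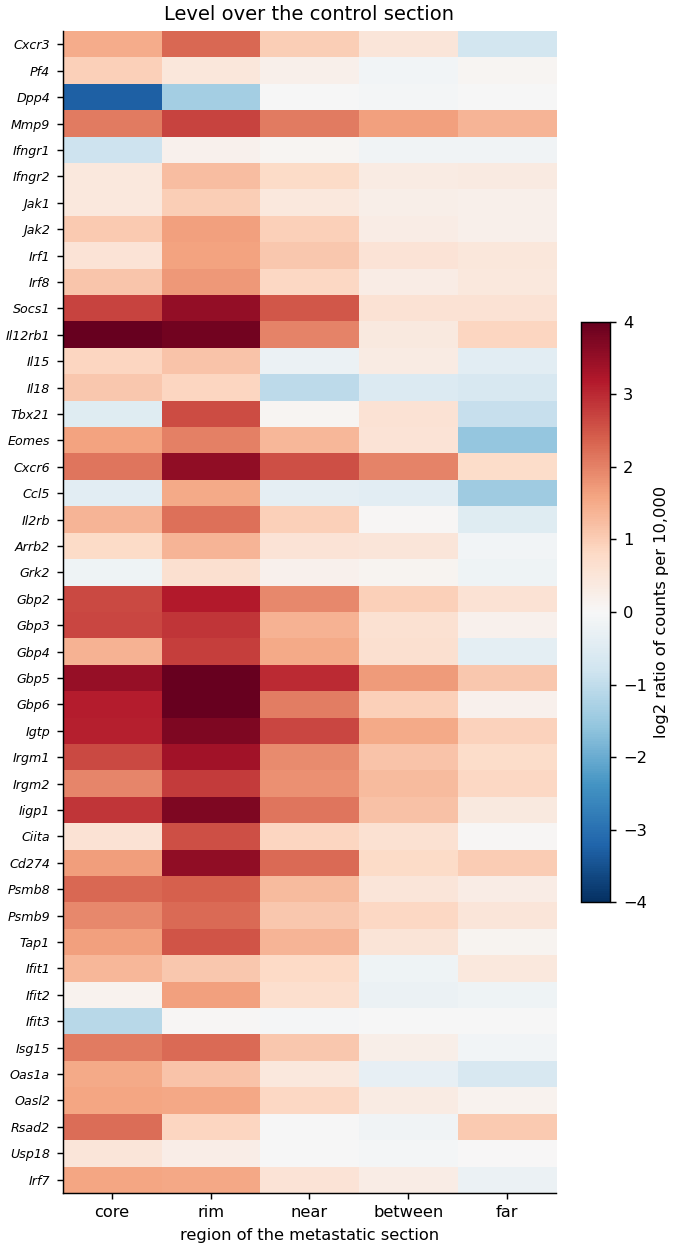
Log2 ratio of CP10k in each region of the metastatic section over the control section for 44 genes of the receptor pathway, interferon-gamma-induced and type I interferon-induced lists with at least 20 control counts (colors end at 4 in either direction). Cxcl9 and Cxcl10 are not drawn because they had 7 and 16 control counts. Most interferon-gamma-induced genes are reddest in the rim and pale toward the far lung, and Dpp4 is blue in the core.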

How the data were processed

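Lung sections were profiled by Visium, which reads polyadenylated RNA on an array of barcoded spots 100 µm apart. The deposited values are unnormalized counts, 1 per distinct molecule, which the authors made with Space Ranger 1.3.1 on mm10 (submitters' processing notes) and limited to spots under tissue. From them, counts were summed over spots and given per 10000 counts, with exact 95% Poisson intervals, and ratios with the exact interval of the split of counts (scipy 1.17.1). Lesion spots came from k-means with 5 clusters on 20 principal components of the 2000 most variable genes (scikit-learn 1.9.0), and distances from array rows and columns. Shares were also taken after thinning spots to 5000 counts. A gene was counted as higher or lower at a 2-fold ratio with at least 20 counts over the spots compared. Strata for co-location were the core, the rim and each ring of 100 µm. The 3 genes, the marker lists and the gene lists were chosen with earlier results of these data known, and the core and rim split and the breakdown by mesothelium counts were made after seeing the data. All 3 genes were named, with any gene of the fixed pathway and interferon lists, and the 10, 10 and 5 genes most correlated with each member. Scripts were tested on simulated data. Mx1 and Cxcl11 were not analysed here, 2 genes of the pathway list are not reported by name here, and image scale factors were not used here.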

Additional observations from a re-analysis of the deposited data

How the results depend on the processing

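No paired analysis was possible because each condition is 1 section. The 24 summary values were recomputed under other settings, which gave 159 values. Of these, 122 stayed within their counting error or spread, 36 moved beyond it and 1 more, a ratio whose interval had excluded 1, crossed 1, and the cause was not tested for any. Some of those that moved also changed sides, as given below. The Cxcr3 ratio of the metastatic over the control section, 1.41, was 0.941 after thinning to 5000 counts. The near-to-far ratio of Cxcl9, 5.24, was 6.63 with near taken as 100 µm, 9.09 around the larger and 3.73 around the smaller lesion, and that of Cxcl10, 7.45, was 11.3, 19.98 and 3.31, and 11.004 with far taken beyond 800 µm. The rim-to-core ratio was 3.71 in the larger and 1.42 in the smaller lesion for Cxcl9, and 2.56 and 1.19 for Cxcl10, which also moved to 2.50 without the top spots. For Cxcr3, 1.74, it was 0.702 as a mean of spot levels, 0.860 after thinning and 0.346 in the smaller lesion, so no direction holds. The co-location odds ratio was 6.97 outside the lesions with at least 2 counts asked of each gene (3.90 with 1) and 6.33 in the lesions after thinning (22.8 without).

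Correlations outside the lesions moved as follows. With all 1110 spots r was 0.477 for Cxcl9 and 0.428 for Cxcl10 with macrophages, 0.316 and 0.341 with T cells, -0.285 and -0.312 with endothelium, 0.257 for Cxcl10 with mesothelium, and 0.175 and -0.169 for Cxcr3 with macrophages and endothelium. Within rings, macrophage values were 0.233 and 0.184 and T cell values 0.0384 and 0.0929. Without abundant genes in the spot totals, macrophage values were 0.269 and 0.232 and endothelial values -0.0540 and -0.125. After thinning, Cxcl9 with macrophages was 0.217 and Cxcl10 with T cells 0.121.

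Clustering with 4 groups gave the same 175 lesion spots and with 6 groups 97 spots, of which 76 were shared. The planned threshold on 4T1 markers against the control section found 0 spots and gave no value. Depth limits Cxcr3 most, since 105 and 103 counts leave intervals wider than most differences between regions.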
